A study of Mus musculus with 2 samples.

Results

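The 10 genes described here belong to the NRF2 oxidative defence pathway and were taken by symbol from both count files, which list 50559 genes each. They are Nfe2l2, which encodes the transcription factor NRF2, its inhibitor Keap1, and the antioxidant targets Nqo1, Hmox1, Gclc, Gclm, Txnrd1, Srxn1, Slc7a11 and Sqstm1. All 10 were found in both files. The RNA came from live GFP-positive cells sorted from enzymatically digested dorsal skin of mice at postnatal day 21, a stage the sample titles place in telogen, when hair follicles rest. The animals carried a floxed, GFP-marked Polr2b allele (Polr2b.fl.fl.GFP), a gene for a core subunit of RNA polymerase II, and K14Cre, in which the keratin 14 promoter drives Cre in basal epidermis and follicle epithelium. The series is 1 group of 2 replicate libraries with no untreated or wild-type control, made so that steady-state levels could be set beside nascent transcription.

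NRF2 is made continuously and is normally destroyed, because KEAP1 hands it to a cullin 3 ubiquitin ligase. Oxidants and electrophiles modify cysteines of KEAP1, NRF2 then accumulates, pairs with a small MAF protein and binds antioxidant response elements near genes of glutathione synthesis, the thioredoxin system, quinone reduction and haem breakdown. BACH1 occupies the same elements as a repressor, and p62, the product of Sqstm1, can bind KEAP1 and carry it to autophagy. In skin the pathway is known for protecting keratinocytes from ultraviolet light and reactive chemicals, and for a part in the formation of the cornified layer.

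Antioxidant response elements are the letters through which NRF2 reaches its targets, so the start regions of the members were read for them. RefSeq promoter windows (build GRCm38.p6, 250 bases before to 50 bases after each annotated start) matched 8 of the 10 members by symbol, with 10 windows in all, and none was used for Hmox1 and Gclc. The element core TGACNNNGC, searched on both strands, was present in 4 of these 10 windows, each of a different member, and in 12.4% of all 32851 windows. The AP-1 site TGANTCA, which can overlap the element, was present in 1 of the 10 windows, that of Srxn1, and in 7.81% of all windows. The stretches before the start that hold these matches are printed 5′ to 3′ on the strand of the gene, with the matched letters in capitals.
Nfe2l2: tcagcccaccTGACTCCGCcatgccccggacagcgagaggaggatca
Gclm: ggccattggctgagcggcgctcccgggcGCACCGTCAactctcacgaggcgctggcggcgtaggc
Txnrd1: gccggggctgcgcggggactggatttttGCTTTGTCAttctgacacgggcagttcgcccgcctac
Srxn1: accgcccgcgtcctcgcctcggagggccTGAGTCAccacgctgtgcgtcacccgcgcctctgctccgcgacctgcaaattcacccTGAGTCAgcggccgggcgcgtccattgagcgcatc

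In Nfe2l2 (chr2:75704867-75704913, minus strand) the core began 240 bases before the start. In Gclm (chr3:122245395-122245459, plus strand) it read on the opposite strand, 134 bases before the start, and in Txnrd1 (chr10:82859086-82859150, plus strand) also on the opposite strand, 92 bases before 1 of its 3 annotated starts. Srxn1 (chr2:152105394-152105513, plus strand) held AP-1 letters at 102 and 45 bases before the start, and its match to the element core lay 28 bases past the start. No match was found in the windows of Keap1, Nqo1, Slc7a11 and Sqstm1, which says only that these letters are not in those windows. The counts were made on build mm39, and no position was carried between the builds. Binding was not measured in these files, so a match describes the letters and no site in use.

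The libraries held 36692204 and 33489967 counts. Levels are given as CPM, the count scaled to a common library total, or, where genes are compared with each other, as TPM, which also divides by the deposited gene length. Keratinocyte markers were abundant, with all 7 basal genes above 10 CPM in both libraries, but all 8 fibroblast and all 9 myeloid markers passed 10 CPM too. Summed over each list, the myeloid markers had 8332 and 9185 CPM in replicates 1 and 2, the fibroblast markers 13114 and 6501 CPM, and the basal markers 12212 and 17912 CPM. T cell markers were all below 1 CPM, with Trac and Trdc at 0 counts in both libraries and Cd3e the highest at 29 and 32 counts. The libraries also differed in sex-linked RNA, with 112587 Xist counts in replicate 1 and 11 in replicate 2, against 1 and 6503 counts over 4 Y-linked genes. The labels give neither the sex of the animals nor whether the libraries came from separate animals, but with these counts the libraries were not repeats of 1 RNA sample. Sex cannot be told apart from any other difference between them, and p-values measure only the difference between these samples. In bulk RNA, fewer cells of a type and less RNA per cell cannot be told apart either.

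All 10 members were detected at 1 CPM or more in both libraries, and 8 of 10 at 10 CPM or more. Of the 23690 genes with 10 or more counts in total, 66.8% reached 1 CPM and 40.2% reached 10 CPM in both libraries. Hmox1 was the highest member at 1269 TPM in replicate 1 and 1270.4 TPM in replicate 2. It alone held 48.1% and 48.4% of the counts of the 10 genes. The lowest member, Slc7a11, had 0.612 and 0.300 TPM, and the highest mean TPM exceeded the lowest by 2784-fold. That size depends on the deposited lengths, 1576 bases for Hmox1 and 9381 bases for Slc7a11. In CPM, which ignores length, their means were 807 and 1.73. The median over the members was 30.7 ± 6.79 TPM (SD, n = 2), beside a median of 13.0 TPM for the 15833 genes detected at 1 CPM in both libraries.

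**Figure D1:**
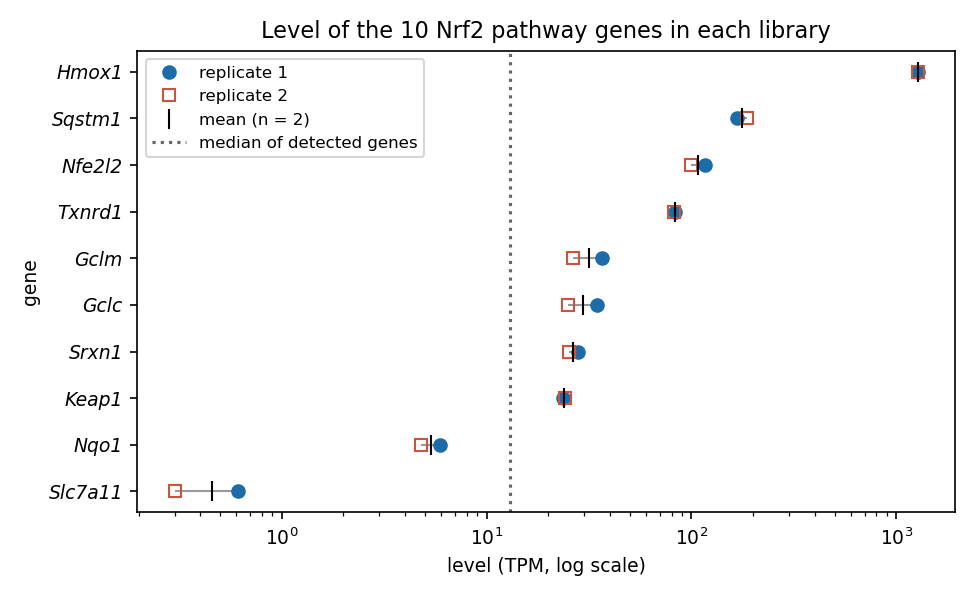
Level of each of the 10 genes in TPM on a log axis, with 1 point per library, a tick at the mean of the 2 libraries and a dotted line at the median of the 15833 detected genes (13.0 TPM). Hmox1 lies near 1269 TPM in both libraries, 8 genes lie above the dotted line, and Nqo1 and Slc7a11 lie below it.

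Among the regulators, Nfe2l2 had 116 TPM in replicate 1 and 99.8 TPM in replicate 2, a mean of 108 ± 11.6 TPM (SD, n = 2) at the 92.7 percentile of the detected genes. Keap1, the adaptor that marks NRF2 for destruction, had 23.7 and 24.2 TPM, a mean of 23.9 ± 0.368 TPM at the 65.1 percentile. RNA of the activator thus stood above RNA of its inhibitor in each library, and the ranges did not overlap. On the log2(TPM + 0.5) scale Nfe2l2 exceeded Keap1 by 2.27 in replicate 1 and 2.02 in replicate 2, which averages to 2.15 ± 0.176 (SD, n = 2) or 4.43-fold. With 2 libraries a two-sided exact sign-flip test cannot give a p below 0.5, so levels and differences between genes are described by their spread, with no p-value.

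Scaled by length, RNA of the repressor Bach1 lay within the range of Nfe2l2 over the libraries. It had 115 and 114 TPM, between the 116 and 99.8 TPM of Nfe2l2. The log2 difference of Nfe2l2 minus Bach1 was 0.01 in replicate 1 and -0.19 in replicate 2, so its sign differed between the libraries. This depends on the deposited lengths, since the mean difference is -0.89 in CPM, with Bach1 the higher gene. Its relative Bach2, known from lymphoid cells, had 3.47 and 2.22 TPM, a low value that rests on a deposited length of 57622 bases. In CPM, which ignores length, Bach2 had 80.8 and 51.5.

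All 3 small MAF genes, whose products pair with NRF2 or BACH1 on the element, were expressed. Maff had 64.9 and 63.4 TPM, Mafk 49.7 and 59.6 TPM, and Mafg 23.7 and 25.0 TPM. The related factor Nfe2l1, known for the control of proteasome genes, had 109 and 126 TPM and overlapped Nfe2l2 in TPM range. In CPM, not scaled by length, Nfe2l1 had 231 and 267, above the 179 and 154 of Nfe2l2. Nfe2l3 had 17.1 and 13.3 TPM, and the blood cell factor Nfe2 was the lowest regulator at 0.914 and 0.713 TPM. Of the ubiquitin ligase partners, the scaffold Cul3 had 71.6 and 64.7 TPM and the RING subunit Rbx1 had 24.3 and 21.0 TPM. Btrc, which takes NRF2 to a separate ubiquitin ligase, had 4.98 and 4.47 TPM.

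Sqstm1, the autophagy receptor that can sequester KEAP1, was the second highest member. It had 166 TPM in replicate 1 and 186 TPM in replicate 2, at the 95.8 percentile of the detected genes. Replicate 2 was the higher library, and both values lay above those of Nfe2l2. All 11 autophagy genes listed beside it passed 10 CPM in both libraries. Gabarap at 445 and 508 TPM and Map1lc3b at 233 and 229 TPM were the highest of that list, and both encode ubiquitin-like proteins that such receptors bind. The receptor Optn was lowest at 11.4 and 9.56 TPM.

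Hmox1 encodes haem oxygenase 1, the inducible enzyme that opens the haem ring and releases iron, carbon monoxide and biliverdin. With 807 CPM in each library and a mean of 1269 ± 1.27 TPM (SD, n = 2), it lay at the 99.5 percentile of the detected genes. The constitutive enzyme Hmox2 had 81.0 and 82.1 TPM, and Hmox1 exceeded it by 3.96 and 3.94 on the log2(TPM + 0.5) scale, a mean of 15.5-fold. Of the biliverdin reductases, which act on the product of haem oxygenase, Blvrb had 201 and 228 TPM and Blvra 32.9 and 43.3 TPM. The ferritin chains that store iron led the haem and iron list, Ftl1 with 3112 and 3484 TPM and Fth1 with 1674 and 2256 TPM. The transferrin receptor Tfrc was the lowest of the 8 genes on that list at 40.2 and 28.1 TPM.

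Macrophages are known to express Hmox1 and ferritin, and myeloid RNA was abundant in these libraries. The 9 myeloid markers ranged in mean level from 269 TPM for Adgre1 to 3994 TPM for Lyz2, with a median of 962 TPM, so Hmox1 lay within their range. It lay within the range of the 7 basal keratinocyte markers as well, which ran from 144 TPM for Itgb4 to 5763 TPM for Krt5. The part of the myeloid cells in the Hmox1 level was not tested.

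The glutathione enzymes stood at moderate levels. Gclc, the catalytic subunit of glutamate-cysteine ligase, had 34.4 TPM in replicate 1 and 25.0 TPM in replicate 2. Gclm, the subunit that modifies its activity, had 36.5 and 26.4 TPM. Replicate 1 was the higher library for both subunits, and their ranges overlapped. Gclm exceeded Gclc by 0.09 and 0.08 on the log2(TPM + 0.5) scale, a mean of 1.06-fold that reverses without scaling by length, where the mean difference is -0.75 in CPM. Gss, which completes glutathione, had 5.78 and 6.49 TPM, below both ligase subunits in each library.

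Slc7a11 was at the bottom of the members. It encodes the cystine-specific chain of the cystine/glutamate exchanger, which supplies cysteine for glutathione. It had 85 counts in replicate 1 and 38 in replicate 2, which are 2.32 and 1.13 CPM, and lay at the 1.35 percentile of the detected genes in TPM. Detected genes were chosen by CPM and ranked by TPM, so a long gene just past 1 CPM falls near the bottom. The deposited length of Slc7a11 is 9381 bases. Its partner chain Slc3a2, which also serves other amino acid transporters, had 65.3 and 54.2 TPM. The log2(TPM + 0.5) difference of Slc7a11 minus Slc3a2 was -5.89 and -6.10, a mean of 63.6-fold, and its size depends on the pseudocount because Slc7a11 is near the floor.

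Glutathione peroxidases spanned a wide range. Gpx1, the cytosolic peroxidase, led the glutathione list at 1121 and 1321 TPM, followed by the secreted Gpx3 at 569.7 and 404 TPM. Gpx8 was lowest at 1.83 and 0.923 TPM. Of the 11 genes on the list, 7 passed 10 CPM in both libraries.

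In the thioredoxin system, Txnrd1 was the highest of the member enzymes after Hmox1. The selenoenzyme reduces thioredoxin with NADPH, and its gene had 83.5 TPM in replicate 1 and 82.5 TPM in replicate 2, at the 90.1 percentile. The mitochondrial reductase Txnrd2 had 10.2 and 10.8 TPM, and Txnrd1 exceeded it by a mean of 2.92 ± 0.072 (SD, n = 2) on the log2(TPM + 0.5) scale, or 7.59-fold. In CPM, not scaled by length, the mean difference is 3.98. Txnrd3, a reductase known from testis, had 16.0 TPM in each library. The substrate gene Txn1 had 65.7 and 66.9 TPM, below Txnrd1 in both libraries. Txnip, which binds and restrains thioredoxin, was the highest gene on the list at 1038 and 550.2 TPM, and the peroxiredoxin Prdx1 followed at 538 and 459.8 TPM.

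Srxn1 encodes sulfiredoxin, which repairs overoxidised peroxiredoxins, and had 27.8 TPM in replicate 1 and 25.3 TPM in replicate 2. Its TPM range overlapped those of Gclc and Gclm. Of the 11 thioredoxin genes, 10 passed 10 CPM in both libraries, and Txnrd2 was the exception.

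Nqo1, the quinone reductase often used as a reporter of NRF2 activity, was low. It had 5.90 TPM in replicate 1 and 4.78 TPM in replicate 2, from 293 and 216 counts, at the 30.1 percentile of the detected genes. Its relative Nqo2 had 16.4 and 15.1 TPM, above Nqo1 in both libraries. Other genes of conjugation and detoxification reached far higher levels, with glutathione S-transferase pi 1 (Gstp1) at 262 and 319 TPM and the epoxide hydrolase Ephx1 at 187 TPM in each library. Gsta1 was the lowest of the 20 genes at 5 counts and 1 count. Gstp1 and Gstp2 are near-identical copies, as are Gsta1 and Gsta2, so their separate counts are uncertain.

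In order of mean TPM the members ran Hmox1, Sqstm1, Nfe2l2, Txnrd1, Gclm, Gclc, Srxn1, Keap1, Nqo1 and Slc7a11. Among the 9 neighbouring pairs of that order, Gclm with Gclc and Gclc with Srxn1 overlapped in TPM range, and the others were apart in both libraries. The order of the middle members depends on the deposited lengths. In CPM, Keap1 at 42.7 and 43.6 lay above Srxn1 at 38.2 and 34.7, and Gclm at 30.6 and 22.1 lay below both. The steps in mean TPM were steepest at the ends, 7.20-fold from Hmox1 to Sqstm1 and 11.7-fold from Nqo1 to Slc7a11. Both sizes depend on the deposited lengths. Mean CPM was 807 for Hmox1, 404 for Sqstm1, 166 for Nfe2l2, 7.22 for Nqo1 and 1.73 for Slc7a11. On that scale the step from Hmox1 to Sqstm1 was smaller than the step from Sqstm1 to Nfe2l2.

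The wider pathway was broadly expressed. Of 87 further genes on 9 lists of pathway functions, 74 passed 10 CPM and 81 passed 1 CPM in both libraries, with a median of 59.8 TPM. All 6 enzymes that supply NADPH, the reductant of the glutathione and thioredoxin systems, passed 10 CPM. Isocitrate dehydrogenase 1 (Idh1) led them at 199.8 and 170.0 TPM, transaldolase (Taldo1) had 120.3 and 141 TPM, and malic enzyme (Me1) was lowest at 58.4 and 55.3 TPM. Superoxide dismutase 1 (Sod1) had 199 and 127 TPM and catalase (Cat) 154 and 162 TPM, while the extracellular Sod3 had 48.3 and 30.0 TPM. Of 5 efflux pumps, Abcc1 was highest at 72.3 and 84.3 TPM, Abcc5 had 23.1 and 23.7 TPM, and Abcc2 was lowest at 0.957 and 1.14 TPM.

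Other stress programmes gave a measure of the scale. On the integrated stress response list the transcription factors Atf3 and Atf4 led, Atf3 with 2362 and 2369 TPM and Atf4, which also controls Slc7a11, with 371 and 375 TPM. The glutathione-degrading enzyme Chac1 was lowest there at 0.861 and 1.94 TPM. The metallothioneins Mt2 and Mt1, which bind zinc and copper, had 2223 and 2158 TPM and 1301 and 1079 TPM, and Mt3 was lowest at 4 and 2 counts. The medians of the mean levels were 50.9 TPM over the 13 stress response genes, 29.2 TPM over the 6 genes of the metallothionein list and 30.6 TPM over the 10 NRF2 pathway genes, with no test of these differences. Enzyme digestion and sorting preceded lysis, and undisturbed skin was not analysed here.

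**Figure D2:**
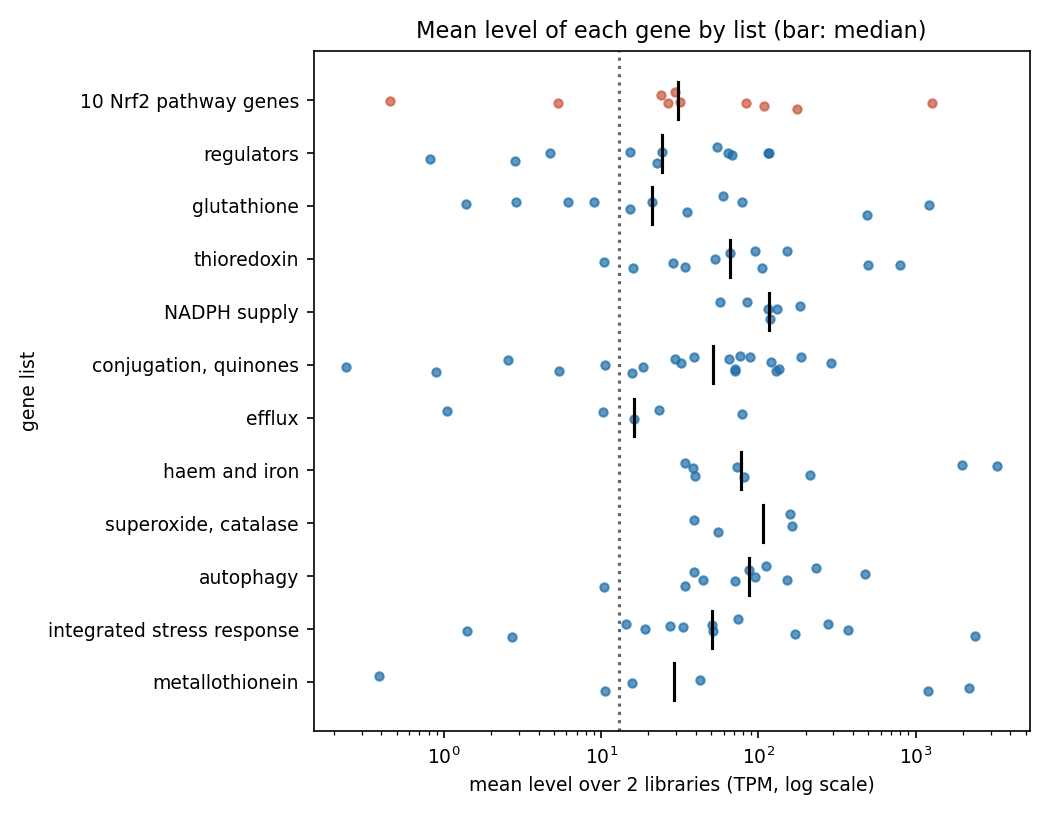
Mean TPM of each gene over the 2 libraries on a log axis, by gene list, with 1 point per gene, a bar at the list median and a dotted line at the median of all detected genes (13.0 TPM). The 10 NRF2 pathway genes span 0.456 to 1269 TPM, and the ferritins at 3298 and 1965 TPM are the points farthest right in the haem and iron list.

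The second comparison was between the libraries, which shows how far each gene differed between these 2 samples. By the exact two-sided binomial test of each gene against the library totals, adjusted by Benjamini-Hochberg over all 23690 tested genes, 6 of the 10 members were lower and 1 was higher in replicate 2. Among all tested genes 27.2% were lower and 16.9% higher, 44.1% in either direction. That split of 3993 higher and 6443 lower moved to 5374 (22.7%) and 5069 (21.4%) under TMM scaling, where 2 members were higher and 4 lower. The test compares these libraries and no condition, and it covers counting error only. It calls smaller differences at higher counts, and 8 of 10 members reached 10 CPM in both libraries, against 40.2% of all tested genes. The shares of members and of all tested genes are thus not matched for depth. Ratios are given as log2 of replicate 2 over replicate 1, and their median was -0.18 over the members and -0.09 over all tested genes. By edgeR's exact test, which adds the spread shared by all genes (a coefficient of variation of 22.9%), 0 members were called, with adjusted p from 0.722 to 1.00 and 0 members at an unadjusted p under 0.05. That spread is estimated from the same 2 libraries and so already holds the differences tested, and the test called 0.291% of all genes, so a missed call does not show that a member was equal in both.

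Slc7a11 differed most, with 2.32 CPM in replicate 1 and 1.13 CPM in replicate 2, a log2 ratio of -1.03 with an exact 95% interval from -1.62 to -0.46. Its adjusted p was 7.34e-04 in the exact binomial test and 0.722 in edgeR's exact test. It was the only member beyond 1.5-fold, a distance that 14.5% of the detected genes exceeded.

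The ligase subunits differed by nearly the same amount. Gclc had 51.5 and 37.4 CPM, a log2 ratio of -0.46 (exact 95% interval -0.57 to -0.36), and Gclm 30.6 and 22.1 CPM, a log2 ratio of -0.47 (-0.61 to -0.33). Adjusted p in the exact binomial test were 9.26e-18 and 4.42e-11. Both intervals lay below the median of all tested genes, as the plot of library ratios shows.

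Nfe2l2 was lower in replicate 2 by a smaller step, with 179 and 154 CPM, a log2 ratio of -0.22 (-0.28 to -0.17) with an exact binomial adjusted p of 1.27e-15. Nqo1 at -0.31 (-0.57 to -0.05) and Srxn1 at -0.14 (-0.25 to -0.02) were close to the threshold, with exact binomial adjusted p of 0.0432 and 0.0377. Both lose the call when the libraries are scaled by TMM, where their ratios are -0.23 and -0.06, and without the count filter, where their exact binomial adjusted p are 0.0579 and 0.0510. Sqstm1 was the member higher in replicate 2, with 381 and 427 CPM, a log2 ratio of 0.16 (0.13 to 0.20) with an exact binomial adjusted p of 2.05e-20. Its direction turned to -0.31 when the libraries were scaled to the epithelial junction genes.

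The other 3 members did not pass the test at this depth. Hmox1 had a log2 ratio of 0.00 with an exact 95% interval from -0.02 to 0.02. The ratios were -0.02 (-0.08 to 0.04) for Txnrd1 and 0.03 (-0.08 to 0.13) for Keap1. Under TMM scaling the sign of Txnrd1 turns (0.06). There Hmox1 moves from 0.00 to 0.08 and passes the test as higher in replicate 2. Scaled to the epithelial junction genes, which moves every log2 ratio by -0.48, all 10 members and 66.3% of all tested genes were lower in replicate 2, and 0 members and 2.25% of all tested genes were higher.

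**Figure D3:**
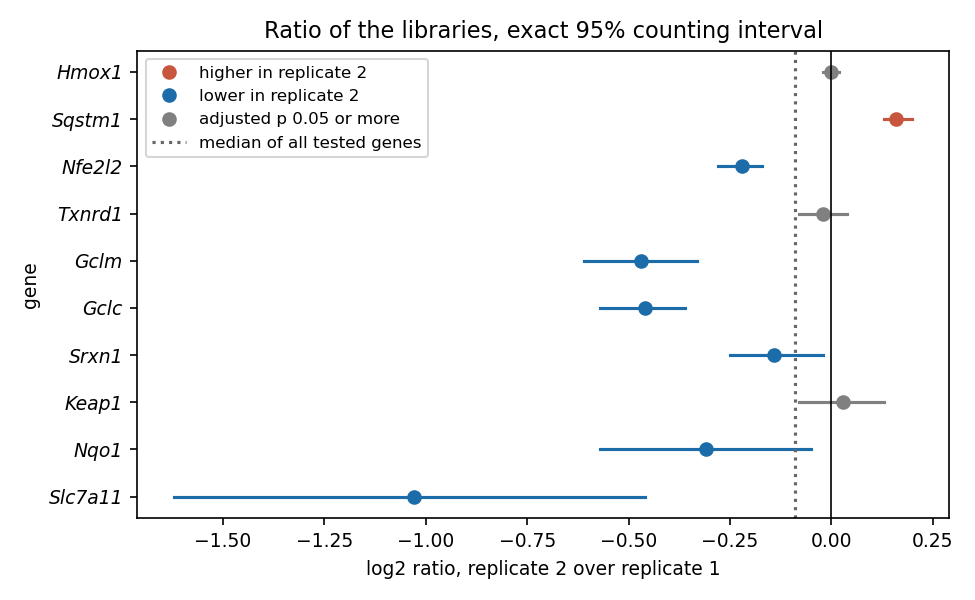
Log2 ratio of replicate 2 over replicate 1 for each of the 10 genes, with exact 95% counting intervals and a dotted line at the median of all tested genes (-0.09). Slc7a11 lies farthest left at -1.03, Gclm and Gclc lie at -0.47 and -0.46, and Hmox1 lies at 0.00 with an interval narrower than its neighbours.

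Cell type markers differed between the libraries as well. All 8 fibroblast markers were lower in replicate 2, with a median log2 ratio of -0.97, as were 4 of 5 endothelial markers, at -0.57, and 4 of 5 melanocyte markers, at -1.15. All 7 basal and all 6 spinous keratinocyte markers were higher, at medians of 0.47 and 0.74, with Trp63 the smallest at 0.05. Of the 11 epithelial junction genes 9 were higher, at a list median of 0.48, and 2 were lower, Ctnnb1 at -0.16 and Dsg3 at -0.12. Among all tested genes 16.9% were higher and 27.2% lower. The myeloid markers had 5 of 9 higher and 2 lower, at a median of 0.05. The part of these markers in the ratios of the 10 genes was not tested.

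Among the regulators outside the 10 genes, 4 of 11 were lower in replicate 2 and 2 were higher, beside 27.2% lower and 16.9% higher among all tested genes. Bach2 had a log2 ratio of -0.65, Nfe2l3 -0.37, Rbx1 -0.22 and Cul3 -0.15, while Mafk had 0.26 and Nfe2l1 0.21. Bach1 did not pass, at a log2 ratio of -0.02 with an exact binomial adjusted p of 0.469, nor did Maff, Mafg, Btrc and Nfe2.

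Over the 86 tested genes of the 9 further pathway lists, 28 were higher and 30 lower in replicate 2, and 28 did not pass, with a median of -0.01. Among all tested genes 16.9% were higher and 27.2% lower. These shares are not matched for depth, since 74 of the 87 listed genes reached 10 CPM in both libraries, against 40.2% of all tested genes. The glutathione list had 6 of 11 lower and 2 higher, with Slc3a2 at -0.27 and Gpx3 at -0.50 among the lower and Gpx1 at 0.23 among the higher. On the thioredoxin list 4 of 11 were lower and 3 higher, and Txnip was the farthest at -0.92. The haem and iron list had 4 of 8 higher, with Fth1 at 0.43 and Ftl1 at 0.16, and 2 lower, with Tfrc at -0.52. Conjugation and quinone genes were split, 7 of 19 tested higher and 6 lower, and Gsta4 (50 and 21 counts) was the single gene of all 86 beyond 2-fold, at -1.12.

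The remaining lists were small, and their counts stand beside the same 16.9% higher and 27.2% lower among all tested genes. NADPH supply had 3 of 6 genes higher and 1 lower, superoxide and catalase genes 1 of 4 higher and 3 lower, efflux pumps 2 of 5 higher and 1 lower, and autophagy genes 4 of 11 higher and 3 lower. The integrated stress response list had 7 of 13 higher and none lower at a median of 0.15, with Chac1 beyond 2-fold at 1.17 from 20 and 41 counts. Of 5 tested metallothionein list genes 1 was higher and 3 were lower.

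**Figure D4:**
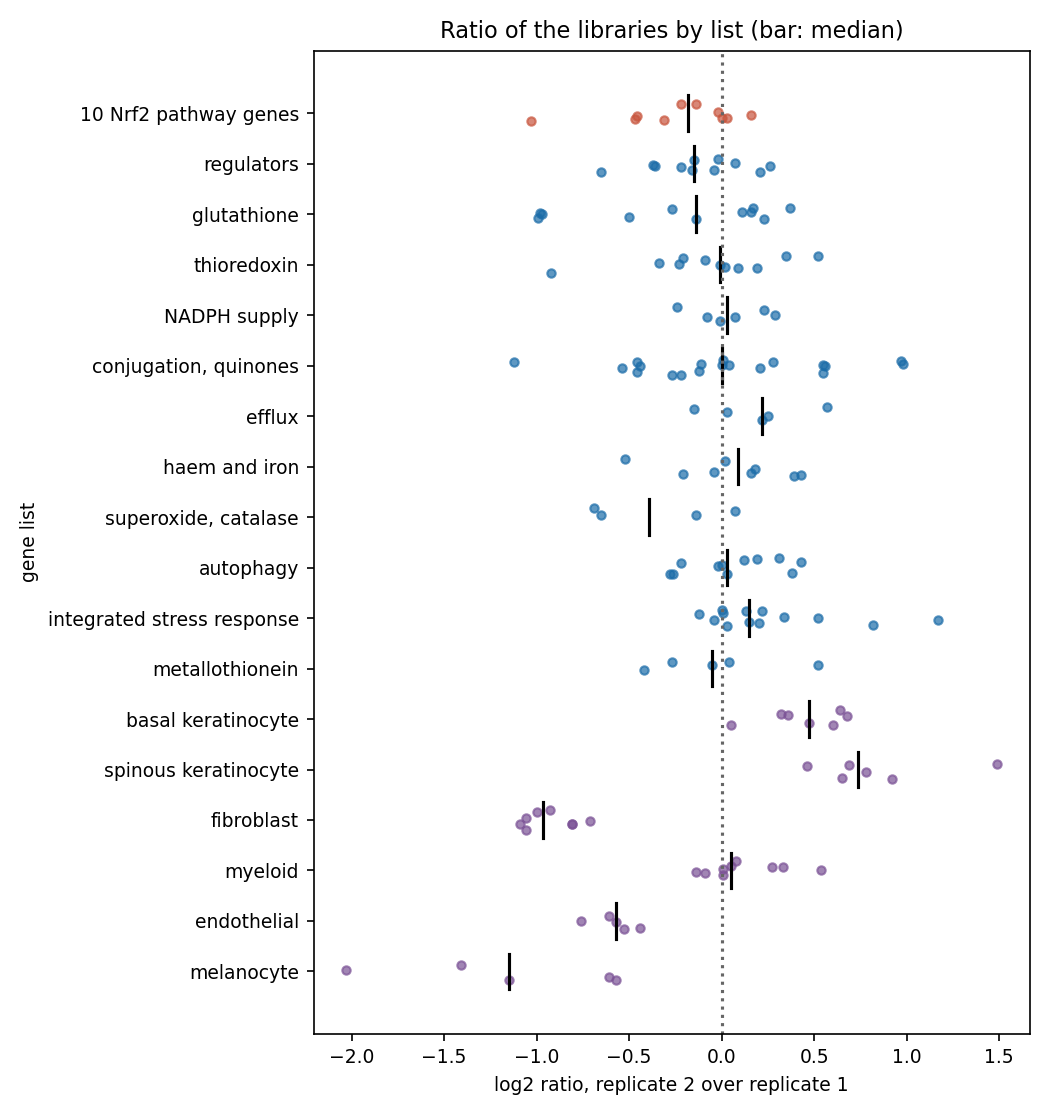
Log2 ratio of replicate 2 over replicate 1 for each gene with 10 or more counts in total, by gene list, with 1 point per gene, a bar at the list median and a dotted line at 0. The 10 NRF2 pathway genes have a median of -0.18, between the fibroblast markers at -0.97 and the spinous keratinocyte markers at 0.74.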

How the data were processed

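The authors deposited raw counts by gene, with gene lengths, for each of the 2 libraries, made with featureCounts on build mm39, per the submitters' processing notes. Per the labels' protocols, total RNA was depleted of ribosomal RNA and sequenced in paired ends. Not given in the sources used here are the aligner, the annotation, the strand setting and how multi-mapping reads were handled, so overlapping genes and near-identical copies may share reads. Gene symbols are those of the files. CPM were computed from library totals and TPM from counts and the deposited length. Replicate numbers come from the titles.

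Genes with 10 or more counts in total (23690) were tested with the exact binomial test and Benjamini-Hochberg adjustment at 0.05 (scipy 1.17.1), and with the exact test of edgeR 4.0.16 using the common dispersion of an intercept-only fit. Alternatives were TMM, DESeq2 1.42.0 size factors, scaling to 11 epithelial junction genes, totals without Rn7sk and mitochondrial genes, no count filter, other pseudocounts and lengths shortened by 200 bases. Intervals are exact 95% intervals and, since reads carry no molecular identifiers, cover counting error only. Scripts were tested on simulated data.

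The 10 members and all gene lists were chosen with earlier results of these data known. Named are the members, the regulators, 6 partner genes, and from each further list the 2 highest and the lowest gene by mean TPM and any gene beyond 2-fold past the binomial test. Nqo2, Blvra and Blvrb fall outside that rule and were named for their role after their values were seen.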

Additional observations from a re-analysis of the deposited data

How the results depend on the processing

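With 2 libraries of 1 group, no estimate of the spread of a library ratio can be had from leaving a library out. No paired analysis was possible because the series has 1 group. The count of members higher in replicate 2 (1) became 2 with DESeq2 size factors as with TMM, and 0 when scaled to the epithelial junction genes and by edgeR's exact test. The count lower (6) became 10 with junction scaling and 0 by edgeR's exact test, and 4 with TMM, with DESeq2 size factors and without the count filter. TMM and DESeq2 size factors each moved all log2 ratios by 0.08 and junction scaling by -0.48. Among all tested genes the calls were then 5374 higher and 5069 lower (TMM), 5365 higher and 5071 lower (DESeq2), and 533 higher and 15717 lower (junction scaling). Reversed ratios were those of Txnrd1 (0.06), under DESeq2 size factors and under TMM alike, and of Keap1 (-0.45) and Sqstm1 (-0.31) with junction scaling. Hmox1 moved from 0.00 to 0.08 under DESeq2 size factors and under TMM. The count of members at 10 CPM stayed within 1.5 times under every alternative run. The median TPM of 30.7 became 22.8 with shortened lengths and 37.9 without Rn7sk and mitochondrial genes in the total. In CPM, not scaled by length, the pair differences (log2) were 1.93 for Nfe2l2 minus Keap1, -0.75 (reversed) for Gclm minus Gclc, 3.50 for Hmox1 minus Hmox2, 3.98 for Txnrd1 minus Txnrd2, -6.81 for Slc7a11 minus Slc3a2 and -0.89 for Nfe2l2 minus Bach1. Shortened lengths gave 0.15 for Gclm minus Gclc, 4.01 for Hmox1 minus Hmox2, 2.82 for Txnrd1 minus Txnrd2 and -5.70 for Slc7a11 minus Slc3a2. The last was -6.80 with a pseudocount of 0.1 and -5.39 with 1. Nfe2l2 minus Bach1 ranged from -0.19 to 0.01 when either replicate was left out. The cause of these shifts was not tested beyond the construction of each setting. Counting depth limits Slc7a11 and Nqo1 most.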
